A study of Rattus norvegicus with 8 samples.

Results

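The genes described here carry urea across cell membranes or let kidney cells live in the salty, urea-rich fluid of the inner medulla. Their names were given as a fixed list of 8: the urea transporters Slc14a1 and Slc14a2, the aldose reductase Akr1b1, the osmolyte transporters Slc5a3, Slc6a6 and Slc6a12, the transcription factor Nfat5 and the chaperone Hspa4l. Every probe set annotated to exactly 1 of these symbols was taken, which gave 1 probe set each for 7 of the 8 genes, out of 17245 genes named this way on the array. Intensities of Slc6a12, the betaine transporter, were not analysed here. All 7 passed the filter on dim genes, which kept 13796 genes.

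The values come from whole kidneys of 4 HSRA-S and 4 HSRA-C rats, each measured on its own Rat Gene 1.1 ST array. HSRA is a rat model of unilateral renal agenesis bred from a heterogeneous stock, and both groups belong to it. HSRA-S animals were born with a congenital solitary kidney, HSRA-C animals had both kidneys and served as the control, and all were 4 weeks old. The labels used here give neither sex nor litter, and a whole kidney holds cortex, medulla and papilla in whatever proportion was taken. Markers of kidney were bright on every array, with the proximal phosphate transporter Slc34a1 at log2 11.83 to 12.09 in HSRA-S and 11.92 to 11.97 in HSRA-C.

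In the kidney, the collecting duct of the inner medulla releases urea through the products of Slc14a2, and blood vessels of the medulla return it through the product of Slc14a1. The high salt and urea that result would shrink and damage cells, so these cells store small organic solutes: sorbitol made by Akr1b1, myo-inositol taken up by Slc5a3, taurine taken up by Slc6a6 and betaine taken up by Slc6a12. The transcription factor Nfat5, also called TonEBP, is known to switch on this set when the surroundings become hypertonic, together with chaperones such as Hspa4l, also called Osp94.

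HSRA-C replicates 3 and 4 stood apart from the other arrays. On the first principal component of the tested genes, which held 35.9% of the variance, they scored 16.7 and 19.5, while HSRA-S replicates scored -12.8 to -2.12 and HSRA-C replicates 1 and 2 scored -4.59 and -1.20. Array medians were alike, from 30.8 to 32.3 intensity units, and the arrays correlated at 0.987 to 0.995 on the log2 scale. Each group difference of the 7 genes, and of the pathway genes named further on, is therefore given with and without HSRA-C replicates 3 and 4, a choice made with the data known.

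Slc14a2 encodes the UT-A urea transporters and had the widest range between kidneys of all 13796 tested genes. Its log2 intensity was 6.85, 7.04, 7.22 and 4.44 in HSRA-S replicates 1 to 4, against 5.99, 6.44, 8.86 and 9.00 in HSRA-C replicates 1 to 4. HSRA-S replicate 4 was the lowest kidney and HSRA-C replicates 3 and 4 the highest, while HSRA-S replicates 1 to 3 lay above HSRA-C replicates 1 and 2, so the groups overlapped. From the lowest to the highest kidney the intensity differed 23.6-fold, a range of 4.56 on the log2 scale, where the median range over all tested genes was 0.37. The lowest value, 21.7 intensity units in HSRA-S replicate 4, was below the median of that array, 30.8. HSRA-S averaged 6.39 ± 1.31, against 7.57 ± 1.58 for HSRA-C (SD, n = 4 each). HSRA-S minus HSRA-C was -1.19 (95% interval -2.97 to 0.59), with a limma adjusted p of 0.575.

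Slc14a1 encodes UT-B, the urea transporter of the descending vasa recta and of red blood cells. It had log2 intensities of 6.96, 6.80, 7.08 and 5.90 in HSRA-S, against 6.94, 7.17, 7.84 and 8.22 in HSRA-C, in the order of the replicates. The same 3 kidneys stood at the ends as for Slc14a2, although 3 of the 4 HSRA-S kidneys lay close to HSRA-C replicate 1. HSRA-S averaged 6.68 ± 0.54, against 7.54 ± 0.59 for HSRA-C (SD, n = 4 each). The difference of -0.86 (95% interval -1.56 to -0.16), or 1.81-fold, had an adjusted p of 0.358 and did not pass.

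Fewer cells of a type and less RNA per cell cannot be told apart in these whole-kidney samples. Red cells also carry UT-B. The 5 of 8 erythroid markers with a probe set summed to 1886 to 3508 intensity units in HSRA-S and 1357 to 3778 in HSRA-C. Within HSRA-S the lowest sum belonged to replicate 4, where Slc14a1 was lowest, and the lowest of all, 1357, belonged to HSRA-C replicate 4, where Slc14a1 was highest. Endothelial markers (5 of 7 with a probe set) summed to 1840 to 1969 intensity units in HSRA-S and 1923 to 2303 in HSRA-C. The lowest of these sums was that of HSRA-S replicate 4, and the highest were those of HSRA-C replicates 3 and 4 (2204 and 2303), the same kidneys as for Slc14a1. The part of either cell type in the values of Slc14a1 was not tested.

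Both urea transporter genes lie next to each other on rat chromosome 18 in RefSeq assembly GRCr8, Slc14a1 at chr18:73840568-73883925 and Slc14a2 at chr18:73887575-74314546, with 3649 bases between them. Slc14a2 is known to be transcribed from more than 1 start, and the table of RefSeq starts holds an outer and an internal one, which 1 probe set does not separate. Because these neighbours were high and low in the same kidneys, the 300 bases around their starts (250 before and 50 after) are shown, all on the minus strand and read 5′ to 3′, with matches to the motifs named below in capitals. The window of the outer Slc14a2 start is chr18:74314497-74314796, that of the internal start chr18:73921535-73921834 and that of Slc14a1, around a start inside its annotated span, chr18:73864594-73864893.
Slc14a2 outer start: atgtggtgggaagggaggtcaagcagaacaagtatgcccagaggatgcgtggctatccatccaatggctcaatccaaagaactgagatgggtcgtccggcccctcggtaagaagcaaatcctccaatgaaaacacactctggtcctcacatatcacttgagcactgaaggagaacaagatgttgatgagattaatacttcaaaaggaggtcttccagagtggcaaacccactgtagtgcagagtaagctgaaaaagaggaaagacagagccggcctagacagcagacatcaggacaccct
Slc14a2 internal start: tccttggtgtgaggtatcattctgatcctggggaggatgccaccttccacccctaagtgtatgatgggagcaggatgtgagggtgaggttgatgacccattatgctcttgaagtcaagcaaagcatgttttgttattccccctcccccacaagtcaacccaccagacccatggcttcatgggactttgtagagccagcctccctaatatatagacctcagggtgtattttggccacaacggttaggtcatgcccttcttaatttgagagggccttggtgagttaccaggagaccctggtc
Slc14a1: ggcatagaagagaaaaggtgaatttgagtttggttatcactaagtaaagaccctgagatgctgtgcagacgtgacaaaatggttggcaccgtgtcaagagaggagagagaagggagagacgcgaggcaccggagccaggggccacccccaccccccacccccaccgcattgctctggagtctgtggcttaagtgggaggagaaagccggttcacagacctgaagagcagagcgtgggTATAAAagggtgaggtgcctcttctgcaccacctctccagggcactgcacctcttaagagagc

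Windows of this kind were searched on both strands for the core TGGAAA of the tonicity element TonE that Nfat5 binds, for the full TonE consensus by its name, for the cAMP response element core TGACG and for the TATA box TATAAA. The TonE core lies inside the full consensus, and no other matches overlapped. Neither Slc14a2 window held any of the 4 motifs, and the Slc14a1 window held 1 TATA box 13 bases before the start. Of 33469 windows of all genes, 22.7% held the TonE core, 5.98% the full consensus, 21.2% the cAMP core and 14.2% the TATA box. Akr1b1 and Nfat5 had no window and were not searched, while Slc6a12 had one. Sequence more than 250 bases before a start was not searched. Only the taurine transporter Slc6a6, among the 6 members with a window, had a TonE match. Its window, chr4:125752252-125752551 on the plus strand, is shown for that match, whose core lies 156 bases before the start and reads as the reverse complement, and for a TATA box 79 bases before the start.
Slc6a6: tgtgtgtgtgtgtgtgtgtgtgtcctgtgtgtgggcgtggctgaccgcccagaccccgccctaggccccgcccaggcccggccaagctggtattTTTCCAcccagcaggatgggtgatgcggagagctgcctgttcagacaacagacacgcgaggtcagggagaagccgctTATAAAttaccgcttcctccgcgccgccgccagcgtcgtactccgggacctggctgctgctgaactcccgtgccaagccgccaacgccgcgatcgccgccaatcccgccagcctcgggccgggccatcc

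Akr1b1, the aldose reductase that turns glucose into sorbitol, ranked 4 by range among all tested genes. It stood at log2 10.23, 9.77, 9.63 and 7.98 in HSRA-S, against 8.22, 9.00, 11.04 and 11.30 in HSRA-C. As for Slc14a2, HSRA-C replicates 3 and 4 were highest, HSRA-S replicates 1 to 3 were in the middle, and HSRA-C replicates 1 and 2 and HSRA-S replicate 4 were low. The range between kidneys was 10.0-fold. The difference between the group means was -0.49 with a 95% interval from -2.06 to 1.08 (HSRA-S at 9.40 ± 0.99, HSRA-C at 9.89 ± 1.52, SD over 4 kidneys each; adjusted p = 0.820).

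**Figure D1:**
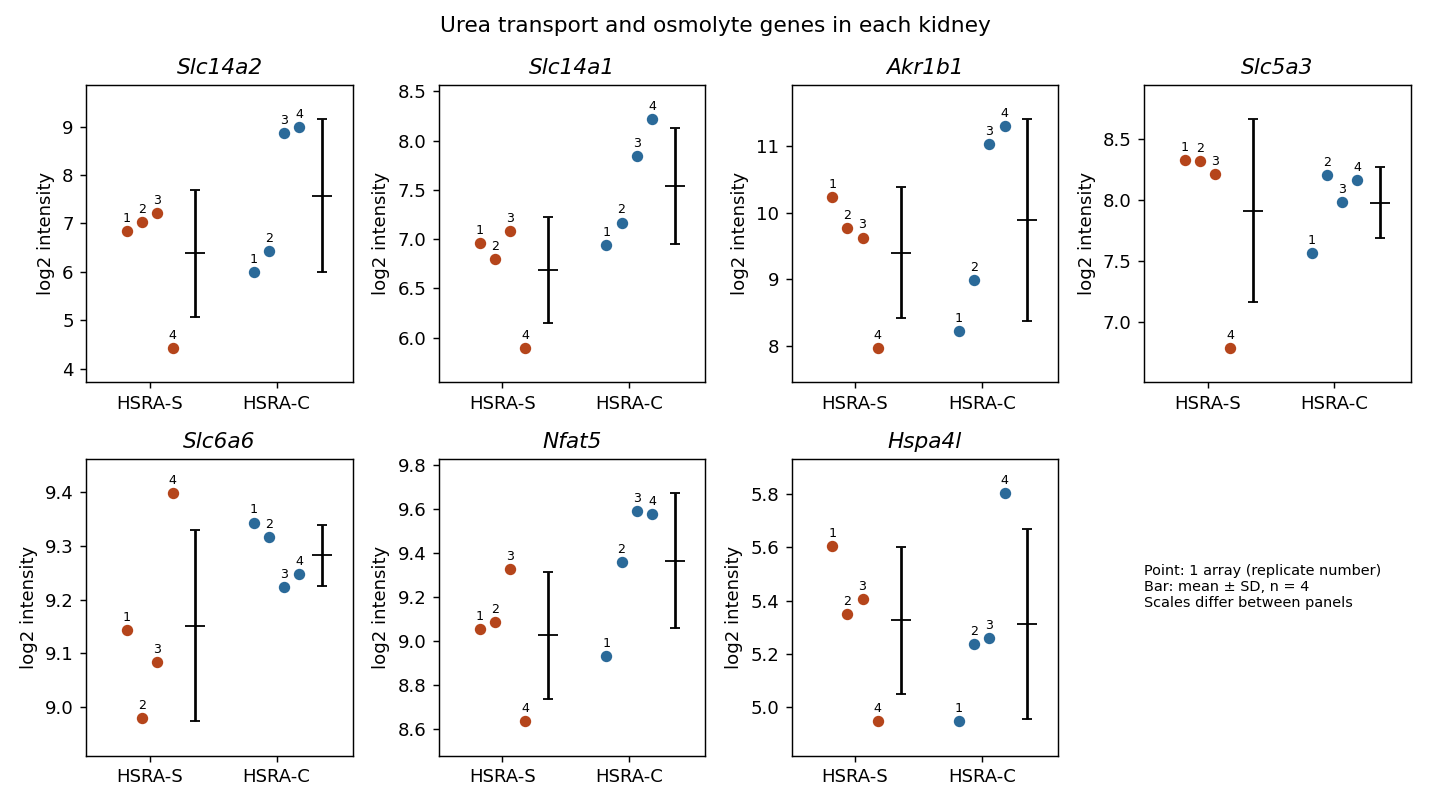
Log2 intensity (vertical axes) of the 7 measured genes in each kidney, with HSRA-S left of HSRA-C, replicate numbers beside the points and mean ± SD (n = 4) to the right of each group; vertical scales differ between panels. HSRA-S replicate 4 is the lowest of the 8 kidneys in every panel except Slc6a6, where it is the highest.

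The sodium-coupled myo-inositol transporter Slc5a3 followed another order. Its log2 intensity was 8.32, 8.32, 8.21 and 6.79 in HSRA-S, against 7.56, 8.20, 7.98 and 8.16 in HSRA-C. HSRA-S replicate 4 was again the lowest kidney, but HSRA-C replicates 3 and 4 were not above HSRA-S replicates 1 to 3, which were the highest. The SD over 4 kidneys was 0.75 within HSRA-S and 0.29 within HSRA-C. The group means differed by -0.07 (95% interval -0.77 to 0.64; adjusted p = 0.954), and without HSRA-S replicate 4 the difference was 0.31.

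Slc6a6, which takes up taurine, varied least. It was at log2 9.14, 8.98, 9.08 and 9.40 in HSRA-S, against 9.34, 9.32, 9.22 and 9.25 in HSRA-C. Here HSRA-S replicate 4 was the highest kidney and the other 3 HSRA-S kidneys the lowest. Its range of 0.42 was close to the median range of 0.37 over all tested genes, and its group difference was -0.13 (SE 0.088; adjusted p = 0.575).

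Nfat5 had log2 intensities of 9.05, 9.08, 9.33 and 8.63 in HSRA-S, against 8.93, 9.36, 9.59 and 9.58 in HSRA-C. HSRA-C replicates 3 and 4 were highest and HSRA-S replicate 4 lowest, in a range of 1.94-fold. HSRA-S averaged 9.02 ± 0.29, against 9.36 ± 0.31 for HSRA-C (SD, n = 4 each). The difference of -0.34 (95% interval -0.72 to 0.04) had an adjusted p of 0.453. Hspa4l, a chaperone of the Hsp110 family, was at 5.61, 5.35, 5.40 and 4.94 in HSRA-S, against 4.95, 5.24, 5.26 and 5.81 in HSRA-C. It was lowest in HSRA-S replicate 4, closely followed by HSRA-C replicate 1, and highest in HSRA-C replicate 4. Its group means were nearly equal, with a difference of 0.01 and a 95% interval from -0.39 to 0.42 (adjusted p = 0.985). Hspa4l was dim, at 30.8 to 55.9 intensity units where the array medians were 30.8 to 32.3.

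**Figure D2:**
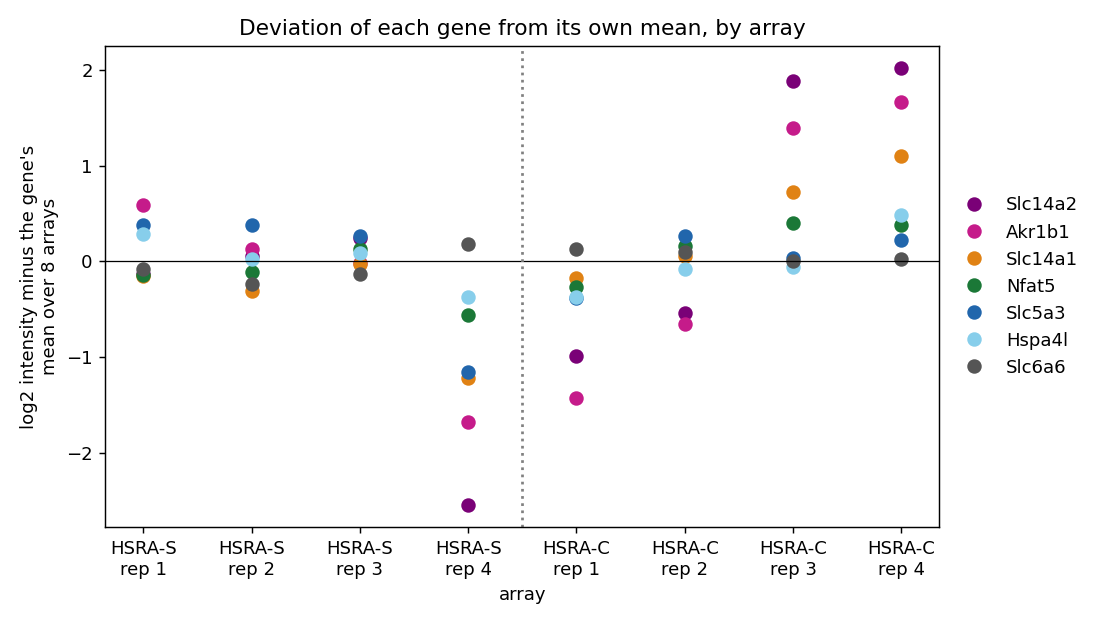
Log2 intensity of each gene minus its own mean over the 8 arrays (vertical axis), for HSRA-S replicates 1 to 4 and then HSRA-C replicates 1 to 4. Slc14a2, Akr1b1, Slc14a1 and Nfat5 are all highest in HSRA-C replicates 3 and 4, and 6 of the 7 genes are lowest in HSRA-S replicate 4.

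The kidneys at the ends, though not the full order, were thus shared by most of the genes. In 4 of the 7 (Slc14a1, Slc14a2, Akr1b1 and Nfat5) the highest arrays were HSRA-C replicates 3 and 4, which held for 10.9% of all tested genes. In 6 of the 7 the lowest array was HSRA-S replicate 4, which held for 18.7% of all tested genes. In 1, Slc6a6, that array was the highest, as in 13.9% of all tested genes. By their range over the 8 arrays the genes ranked 1 (Slc14a2), 4 (Akr1b1), 15 (Slc14a1), 78 (Slc5a3), 473 (Nfat5), 717 (Hspa4l) and 5408 (Slc6a6) among 13796. The median range of the 7 genes was 1.54, against 0.37 over all tested genes. Because the list was chosen with earlier results of these data known, these ranks and ranges only describe it.

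**Figure D3:**
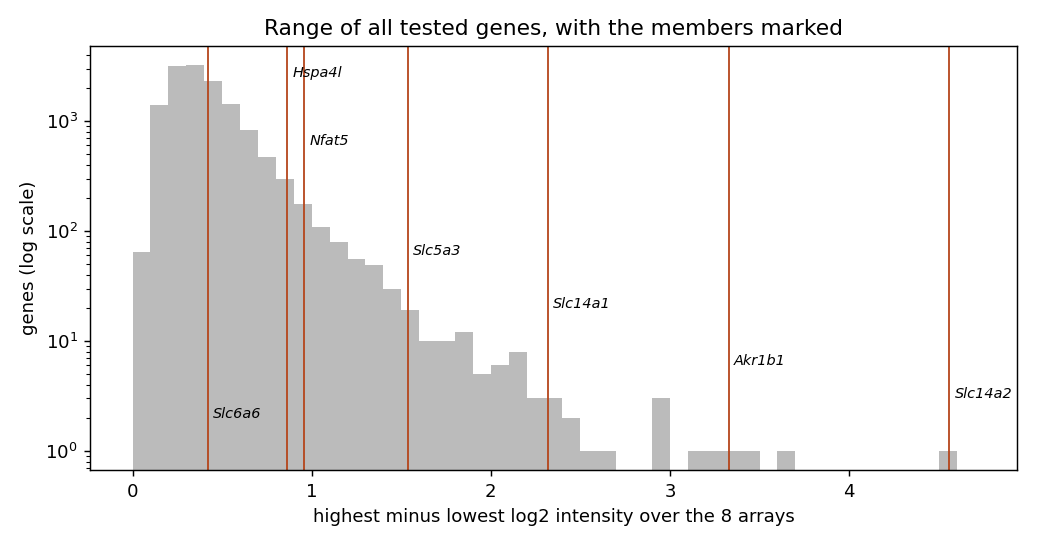
Histogram of the range over the 8 arrays (highest minus lowest log2 intensity, horizontal axis) for 13796 tested genes, with the number of genes on a log scale and vertical lines at the 7 measured genes. Slc14a2 lies at the far right at 4.56, and Slc6a6 at 0.42 lies in the bulk of the genes.

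The spread within the groups was large on both sides. Slc14a2 had the second largest SD of all tested genes within HSRA-S (1.31) and within HSRA-C (1.58), and Akr1b1 ranked 4 and 3 with 0.99 and 1.52. A test of whether the spread differed between the groups called none of the 7 genes (limma on absolute deviations from the group mean, adjusted p from 0.475 for Akr1b1 to 0.942 for Nfat5), while it called 0.377% of all tested genes.

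The group means were then tested gene by gene. At an adjusted p under 0.05, 0 of the 7 passed, where limma called 0% of all tested genes. In 6 of the 7 genes the HSRA-S mean was below the HSRA-C mean, the exception being Hspa4l, and 44.5% of all tested genes had a lower mean in HSRA-S. At an unadjusted p under 0.05 there was 1 gene, Slc14a1, on the lower side, where 4.69% of all tested genes lay. None of the 7 had groups without overlap, which held for 6.29% of all tested genes, 2.17% with HSRA-S lower. The median difference of the 7 genes was -0.34, against 0.02 over all tested genes.

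The direction of the group difference depended on HSRA-C replicates 3 and 4 for Slc14a2 and Akr1b1, and for Slc5a3, which was near 0 with and without them. Without these arrays, 2 control kidneys remained, and the difference was 0.17 for Slc14a2 (95% interval -1.46 to 1.80) and 0.79 for Akr1b1 (-0.49 to 2.07). Slc14a1 was then at -0.37 (-1.06 to 0.32), Nfat5 at -0.12 (-0.56 to 0.32), Slc6a6 at -0.18, Hspa4l at 0.23 and Slc5a3 at 0.03, with adjusted p-values from 0.977 to 0.998.

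Markers of some nephron segments moved with these values and others did not. The 10 of 11 markers of collecting duct principal cells with a probe set summed to 3459 to 4221 intensity units in HSRA-S and 3964 to 5169 in HSRA-C. The highest sums, 4630 and 5169, were those of HSRA-C replicates 3 and 4, and the lowest was that of HSRA-S replicate 4. The proximal tubule markers (15 of 18) ran the other way, at 21670 to 28272 in HSRA-S with the highest sum in replicate 4, and 20239 to 22930 in HSRA-C with the lowest in replicates 3 and 4. The thin limb markers (3 of 6) summed to 2059 to 2681 in HSRA-S and 2655 to 3283 in HSRA-C. Of these genes, Cryab and Cldn4 were lowest in HSRA-S replicate 4, at log2 8.78 and 7.20. Aqp1, the brightest, was instead highest within HSRA-S in that replicate, at 10.52, and was also at 10.52 in HSRA-C replicate 4. The medullary interstitial markers (5 of 6) summed to 605 to 899 in HSRA-S and 654.5 to 1013 in HSRA-C. The interstitial sums were highest in HSRA-C replicates 3 and 4, but within HSRA-S the highest was that of replicate 4. That kidney had the highest Ptgs2, the brightest gene of the list, at log2 9.32. As a mean of log2 values, the list was at 6.15, 6.14, 6.03 and 6.06 in HSRA-S, so replicate 4 was not highest.

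The thick ascending limb markers (7 of 8) summed to 7473 to 8786 in HSRA-S, lowest in replicate 4, and 8570 to 9047 in HSRA-C. HSRA-C replicates 3 and 4 were at 8810 and 8570, within the range of the other kidneys. The distal convoluted tubule markers (5 of 5) summed to 3198 to 4448 in HSRA-S, highest in replicate 1, and 2814 to 3306 in HSRA-C, and HSRA-S replicate 4 was not at an end of their range. The lowest intensity of any probe set was 2.12, so no marker could reach 0, and these values cannot show that a cell type was absent.

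All 10 tested genes of the principal cell list had a lower mean in HSRA-S than in HSRA-C, as did 44.5% of all tested genes. These markers differed in range and in the order of the kidneys. The water channel Aqp4 was at log2 6.25, 6.55, 6.78 and 5.22 in HSRA-S, against 5.45, 6.79, 7.31 and 7.57 in HSRA-C, and the transcription factor Elf5 at 5.56, 5.29, 5.39 and 4.71 in HSRA-S, against 5.06, 5.45, 6.41 and 6.56 in HSRA-C. Both shared the extremes of Slc14a2, and so did Aqp2, Fxyd4 and Gata3. The water channel Aqp2 was at 9.70 in HSRA-S replicate 4, and at 10.39 and 10.66 in HSRA-C replicates 3 and 4. By contrast Hsd11b2, the enzyme that protects the mineralocorticoid receptor from glucocorticoids, had a range of 0.11 over all 8 kidneys, and Scnn1g, a subunit of the epithelial sodium channel, one of 0.55. Scnn1b, another subunit of that channel, was at 8.10, 7.94, 7.90 and 8.26 in HSRA-S, against 8.36, 8.09, 8.01 and 8.16 in HSRA-C, so HSRA-S replicate 4 was high and HSRA-C replicate 1 highest. Tfcp2l1, a transcription factor of the collecting duct, was at 9.54, 9.45, 9.58 and 9.52 in HSRA-S, against 9.55, 9.76, 9.45 and 9.57 in HSRA-C. Its lowest values, nearly equal, were those of HSRA-S replicate 2 and HSRA-C replicate 3. The part of segment proportions in the values of the 7 genes was not tested.

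**Figure D4:**
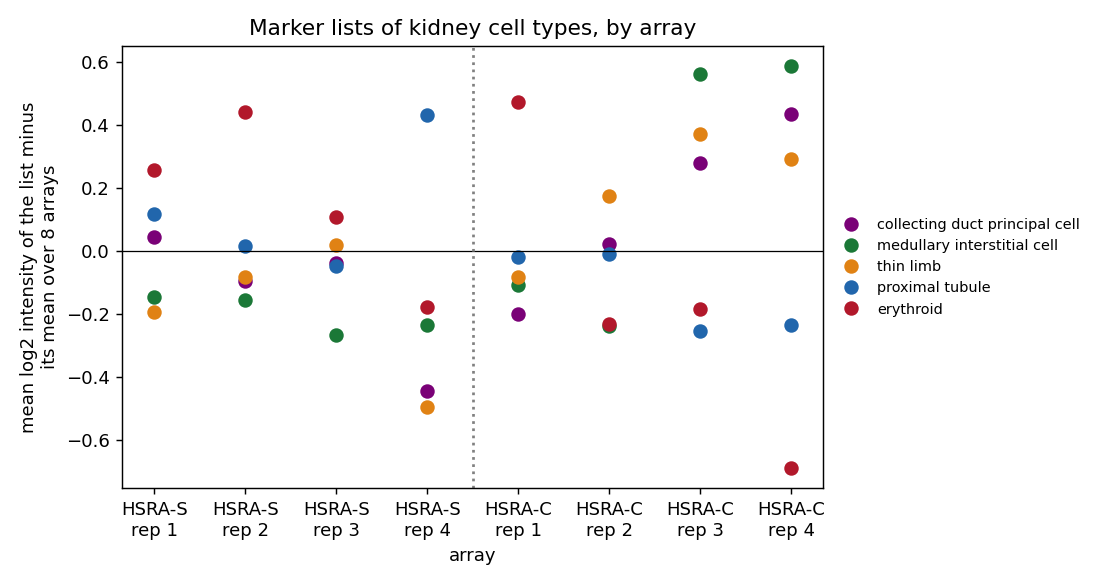
Mean log2 intensity of 5 marker lists minus the list's own mean over the 8 arrays (vertical axis), for HSRA-S replicates 1 to 4 and then HSRA-C replicates 1 to 4. In HSRA-S replicate 4 the proximal tubule mean is high and the collecting duct and thin limb means are low. In HSRA-C replicates 3 and 4 the reverse holds for these means, though not for every gene of a list.

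The mean of the proximal tubule markers minus that of the collecting duct markers was 2.07, 2.11, 1.98 and 2.87 in HSRA-S and 2.18, 1.96, 1.46 and 1.33 in HSRA-C. With this difference as a covariate, added with the data known and taken from the same arrays, 0 of the 7 genes passed, and Slc14a2 stood at 0.66 (95% interval 0.25 to 1.06) and Akr1b1 at 1.08 (0.44 to 1.72). Both had an adjusted p of 0.564. Slc14a1 was at -0.14, Nfat5 at 0.02 and Slc5a3 at 0.52. Hspa4l was at 0.37 (0.07 to 0.67) and Slc6a6 at -0.27 (-0.46 to -0.08). Adjusted p-values of these genes ran from 0.564 to 0.978. At an unadjusted limma p under 0.05 there were 4 of the 7, and 1099 of all 13796 tested genes. Aqp2, Aqp4, Fxyd4, Gata3 and Elf5, which shared the extremes of Slc14a2, are part of the marker difference. This fit therefore removes part of the profile it is applied to, and no conclusion is drawn from it.

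**Figure D5:**
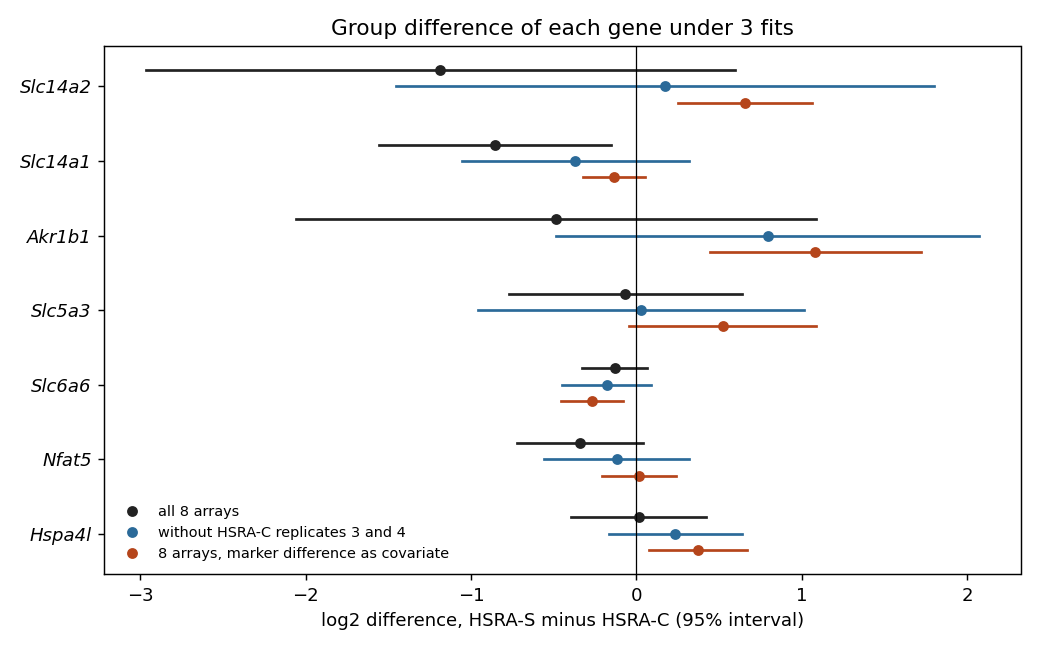
Log2 difference, HSRA-S minus HSRA-C, with its 95% interval (horizontal axis) for the 7 genes under 3 fits: all 8 arrays, without HSRA-C replicates 3 and 4, and 8 arrays with the marker difference as a covariate. Slc14a2, Akr1b1 and Slc5a3 lie below 0 in the first fit and above 0 in the others, and none of the 7 passes the adjusted threshold in any of them.

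Genes around this pathway were examined as 5 lists, and 0 genes of any list passed at an adjusted p under 0.05. In osmolyte metabolism, with 16 tested genes and a median difference of 0.00, 4 were higher and 1 lower at an unadjusted p under 0.05, where 7.36% and 4.69% of all tested genes lay. The inositol monophosphatase Impa2, which releases free inositol, differed by 0.23 (SE 0.074), the choline kinase Chka by 0.18 (SE 0.066) and the choline dehydrogenase Chdh, which starts betaine synthesis, by 0.29 (SE 0.10), with adjusted p-values of 0.338 to 0.358. The betaine aldehyde dehydrogenase Aldh7a1 differed by 0.22 (adjusted p = 0.375). Without HSRA-C replicates 3 and 4, Impa2 was at 0.25, Chka at 0.17, Chdh at 0.13 and Aldh7a1 at 0.11, each with an adjusted p of 0.977.

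The enzyme that makes inositol, Isyna1, was the gene on the lower side. Its log2 intensity was 7.81, 7.80, 7.77 and 7.28 in HSRA-S, against 7.73, 7.85, 8.14 and 8.49 in HSRA-C (difference -0.39, adjusted p = 0.413, and -0.13 without HSRA-C replicates 3 and 4), so its extremes were those of Slc14a2. Sord, which oxidises the sorbitol that Akr1b1 makes, stood at 10.26, 10.29, 10.18 and 10.62 in HSRA-S, against 10.36, 10.24, 9.89 and 9.96 in HSRA-C. Sord was highest in the kidney where Akr1b1 was lowest, and lowest in both kidneys where Akr1b1 was highest.

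The relatives of the 7 genes had a median difference of 0.17. At an unadjusted p under 0.05, with 7.36% of all tested genes higher and 4.69% lower, 3 of 12 were higher and 0 lower. These were the proton-coupled amino acid transporter Slc36a1 (0.37, SE 0.083; adjusted p = 0.331), the creatine transporter Slc6a8 (0.35, SE 0.12; adjusted p = 0.358) and the aldo-keto reductase Akr1b10 (0.64, SE 0.24; adjusted p = 0.359). Akr1b10 was at log2 8.17, 8.29, 8.58 and 8.58 in HSRA-S, against 8.46, 7.98, 7.42 and 7.22 in HSRA-C. It was thus lowest in HSRA-C replicates 3 and 4, where its relative Akr1b1 was highest. Without these arrays, the difference was 0.19 for Akr1b10, 0.11 for Slc6a8 and 0.28 for Slc36a1, each with an adjusted p of 0.977.

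Of 15 tested tonicity signalling genes, 2 were higher and 0 lower at an unadjusted p under 0.05: the stress kinase Mapk14 (0.17, SE 0.066; adjusted p = 0.379) and the chloride-sensing kinase Wnk1 (0.15, SE 0.062; adjusted p = 0.391). The list median was 0.02. Over all tested genes, 7.36% were higher and 4.69% lower at this threshold, which is the same for the lists that follow. Of 12 tested genes of urea transporter regulation and urea handling, 1 was higher, the protein kinase A subunit Prkacb (0.28, SE 0.096; adjusted p = 0.358), and the list median was -0.03. Of 9 tested heat shock genes, Hspa4 of the same Hsp110 family as Hspa4l was higher (0.16, SE 0.065; adjusted p = 0.383) and the small heat shock protein Cryab lower (-0.60, SE 0.23; adjusted p = 0.366), with a list median of 0.04. Cryab was at 9.60, 9.79, 10.02 and 8.78 in HSRA-S, against 9.87, 10.14, 10.27 and 10.34 in HSRA-C, with the lowest value in HSRA-S replicate 4. Without HSRA-C replicates 3 and 4, these differences were 0.15 for Mapk14, 0.13 for Wnk1, 0.32 for Prkacb, 0.14 for Hspa4 and -0.45 for Cryab, each with an adjusted p of 0.977.

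The genes nearest to the profile of Slc14a2 were ranked by the mean absolute difference between centred log2 values over the 8 arrays, for which the median over all tested genes was 1.06. The values were not scaled to a common range, and a gene equal in all kidneys would lie at 1.05. Places therefore depend on range as well as on the order of the kidneys. Akr1b1 came at place 4 (0.41), Slc14a1 was at place 22 (0.68), Nfat5 at 99 (0.85), Slc5a3 at 252 (0.91), Hspa4l at 269 (0.92) and Slc6a6 at 12310 (1.13). The nearest genes outside the list were Psca (0.37), a lipid-anchored surface protein, Nupr1 (0.39), a stress-induced nuclear protein, and Ly6al (0.40). They were followed by the uroplakin-like gene Upk3bl1 (0.42), Eddm3b (0.48) and Cd180 (0.49), a toll-like receptor relative.

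Nupr1 shows the likeness kidney by kidney, at log2 7.10, 6.41, 6.41 and 5.02 in HSRA-S, against 5.66, 6.23, 8.11 and 8.44 in HSRA-C. Psca was at 6.40, 6.50, 6.92 and 4.84 in HSRA-S, against 5.50, 6.61, 7.95 and 7.91 in HSRA-C. All 6 of these genes were lowest in HSRA-S replicate 4 and highest in HSRA-C replicates 3 and 4, as the ranking selects. Urothelial markers (5 of 7 with a probe set) summed to 83.7 to 137 intensity units in HSRA-S and 91.3 to 124 in HSRA-C, with the highest sum in HSRA-S replicate 3 and the lowest in HSRA-S replicate 4.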

How the data were processed

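The authors deposited RMA intensities on a linear scale (2.12 to 9259), 1 column per sample; RMA is named in the submitters' processing notes, and the program that ran it was not given in the sources used here. It equalises the arrays. Per the labels, biotin-labelled RNA of whole kidneys was hybridised to Affymetrix arrays on the GeneAtlas platform. The design assumed log2 values, so log2 of the deposited intensity was taken. Of 29214 probe sets, 18644 had 1 gene symbol. Per gene the probe set of highest mean was used, and the dimmest 20% of genes were left out (log2 mean below 3.63).

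Groups were compared with limma 3.58.1 in R 4.3.3 (lmFit, eBayes, no trend; group as the only term) with Benjamini-Hochberg adjustment over 13796 genes at 0.05. Differences are HSRA-S minus HSRA-C. No batch is named, and per the labels the kidneys are separate biological samples. The number of calls of the test of spread changed with its settings and is not read as a finding. Number of arrays limits all precision.

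Members and lists were chosen with earlier results of these data known. Named by rule were all members, up to 3 genes of smallest unadjusted p under 0.05 in each of 5 pathway lists, the 6 genes nearest to Slc14a2, any collecting duct or thin limb marker, and the ends of other marker lists. Aldh7a1, Isyna1, Sord and, in the closing section, Fkbp5, Zbtb16, Tspan1, Adamtsl2, Bcl6 and Hoxb5 were chosen after their values were seen. Promoter windows and coordinates are those of RefSeq assembly GRCr8. Alternatives covered the filter, probe set choice, eBayes prior, array weights, pairing, scaling and each replicate left out.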

Additional observations from a re-analysis of the deposited data

Results flagged for a closer look

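Of 48 groups of 4 kidneys examined for the 24 named genes, 5 held a kidney far from the other 3. Chance flags about 1 in 20 independent groups, a rate that does not apply here, since 6 of the genes were chosen for their likeness to Slc14a2 and 4 of the 5 cases are the same array. In HSRA-S, replicate 4 lay far below the rest for Slc14a2 (log2 4.44, the next kidney at 6.85), Slc5a3 (6.79, next 8.21), Ly6al (4.64, next 5.59) and Cd180 (4.60, next 5.79). In HSRA-C, replicate 2 lay above the rest for Hspa4 (8.99, next 8.88), by 0.10 on the log2 scale.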

How the results depend on the processing

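In all alternatives run (19 per gene, 18 for Hspa4l) 0 of the 7 genes passed at an adjusted p under 0.05, and the smallest adjusted p of any of them was 0.214, for Slc14a1. The count of all genes called was 0 in 16 alternatives and 1 (Hoxb5) with the dimmest 50% left out, with an intensity trend and robust fit, and with array weights; it ranged from 0 to 0 when single replicates were left out. The 13 pathway genes named with a difference all kept their direction without HSRA-C replicates 3 and 4, where Akr1b10, Slc6a8, Isyna1, Chdh and Aldh7a1 moved by over 1.5 times. Slc14a1 and Slc6a6 kept their direction in all 19.

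Leaving out 1 replicate gave ranges of -1.71 to -0.54 for Slc14a2, -1.06 to -0.59 for Slc14a1, -1.04 to -0.01 for Akr1b1, -0.48 to -0.21 for Nfat5, -0.21 to 0.31 for Slc5a3, -0.21 to -0.07 for Slc6a6 and -0.11 to 0.18 for Hspa4l. The values nearest to 0 for Slc14a2, Akr1b1 and Nfat5 came without HSRA-S replicate 4. Slc5a3 turned to 0.062 with array weights and to 5.86 intensity units on the linear scale, where Hspa4l turned to -0.039 units. Without HSRA-C replicates 3 and 4, Slc14a2 turned to 0.17, Akr1b1 to 0.79 and Slc5a3 to 0.027. With the marker covariate, which includes genes sharing the extremes of Slc14a2, that gene turned to 0.66, Akr1b1 to 1.08, Slc5a3 to 0.52 and Nfat5 to 0.017. The cause of these turns was not tested.

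With the replicate number as a block (replicate block), Slc14a1 was at -0.86 (adjusted p = 0.405), Slc14a2 had an adjusted p of 0.608, and 0 genes were called. Same-numbered samples share only a number: their deviations correlated at -0.068, 0.070, 0.129 and -0.11. Genes whose spread differed numbered 52, but 98 over all probe sets, 84 on the linear scale, 0 with the trend and robust fit, 17 with deviations from the group median, and 0 to 71 with single replicates left out. The 6 genes nearest to Slc14a2 were the same 6 by root mean square distance.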

Other observations

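Over the 6 arrays without HSRA-C replicates 3 and 4, the genes nearest to Slc14a2 were largely different ones, with 1 of 6 shared (Psca). They were Fkbp5 and Zbtb16, both known to be induced by glucocorticoids, Tspan1, Adamtsl2 and the transcriptional repressor Bcl6. Fkbp5 was at log2 7.67, 7.69, 7.61 and 6.12 in HSRA-S, against 6.84, 7.29, 5.96 and 6.15 in HSRA-C. It was thus low in HSRA-S replicate 4, as Slc14a2 was, but also in HSRA-C replicates 3 and 4, where Slc14a2 was highest. Zbtb16 was at 7.40, 8.14, 8.15 and 5.19 in HSRA-S, against 6.01, 7.86, 6.02 and 6.17 in HSRA-C, lowest in HSRA-S replicate 4 and low also in HSRA-C replicates 1, 3 and 4. Bcl6 was at 7.23, 7.39, 7.53 and 5.85 in HSRA-S, against 6.34, 7.39, 7.51 and 7.58 in HSRA-C, and was low only in HSRA-S replicate 4 and HSRA-C replicate 1. The adjusted p of the group difference was 0.485 for Fkbp5, 0.686 for Zbtb16 and 0.868 for Bcl6.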
